A study of Mus musculus with 16 samples.

Results

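The glutathione transferases described here were 10 genes named by symbol: Gsta3, Gsta4, Gstm1, Gstm2, Gstp1, Gstp2, Gstt1, Gstk1, Gsto1 and Mgst1. They were 10 of 22196 genes quantified in the mammary gland of mice, and all 10 were among the 12506 genes with enough counts to be tested. The listing set no threshold on a measured value, but it was made with results of these libraries in view. Those results had drawn attention to Gsta3, Gsta4 and Gstm1 in the comparison of diets without metformin, and to Gstp2 in the comparison of metformin with control on NCD. Values of these genes in these comparisons are therefore given as a description. Where calls and adjusted p-values cover them there, they are no support for a difference.

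The study crossed a diet with a drug in mid-lactation, which the series title gives as the stage. RNA from whole inguinal mammary gland was sequenced in 16 libraries that fell into 4 groups of 4. The groups were HFD with metformin, HFD with the control treatment, NCD with metformin, and NCD with the control treatment. HFD is a high fat diet given during lactation, NCD is the other diet and is not spelled out in the labels, and metformin is a drug that lowers blood glucose. All 16 libraries carry the age label postnatal day 16, and no strain, genotype, dose or route is given in the labels. Nothing in the labels ties a library to its own animal, so p-values reflect only how far these samples spread, and that spread may be technical. In whole gland, fewer cells of a type and less RNA per cell cannot be told apart.

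Glutathione transferases join the tripeptide glutathione to electrophilic compounds, which makes them more soluble and ready for export from the cell. They are the phase II detoxifying enzymes for many drugs, for carcinogens and for the reactive aldehydes that come from oxidised lipids. The soluble enzymes are grouped into classes by sequence, among them alpha (Gsta), mu (Gstm), pi (Gstp), theta (Gstt), omega (Gsto) and the mitochondrial and peroxisomal kappa class (Gstk), while Mgst1 belongs to a separate family of membrane proteins. Several are induced by NRF2, a transcription factor that binds the antioxidant response element together with small MAF proteins, and some by the aryl hydrocarbon receptor through the xenobiotic response element.

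The promoters of 4 of these genes are shown because the results turn on them: Gsta3 and Gstp2 had the widest range over libraries, Gstp1 is the near-identical neighbour of Gstp2, and Mgst1 had the highest level. Each runs 5′ to 3′ on the strand of its gene, from 250 bases before to 50 bases after the RefSeq start, on GRCm38.p6. Capitals mark matches on either strand to TGACNNNGC (the core of the antioxidant response element), to GCGTG (the core of the xenobiotic response element) or to TGANTCA (the AP-1 core), and these motifs did not overlap in these windows.
Gsta3 (chr1:21240335-21240634, plus strand): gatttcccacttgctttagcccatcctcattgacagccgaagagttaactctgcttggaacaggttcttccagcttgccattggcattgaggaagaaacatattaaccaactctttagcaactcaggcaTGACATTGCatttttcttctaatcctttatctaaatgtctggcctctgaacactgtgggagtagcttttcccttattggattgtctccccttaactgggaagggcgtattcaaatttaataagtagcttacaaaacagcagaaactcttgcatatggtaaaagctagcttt
Mgst1 (chr6:138140277-138140576, plus strand): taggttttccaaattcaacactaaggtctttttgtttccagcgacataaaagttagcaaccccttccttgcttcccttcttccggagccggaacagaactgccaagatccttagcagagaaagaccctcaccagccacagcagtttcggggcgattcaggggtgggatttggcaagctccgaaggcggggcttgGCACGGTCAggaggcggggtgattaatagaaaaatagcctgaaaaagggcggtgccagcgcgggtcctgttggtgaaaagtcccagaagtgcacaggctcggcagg
Gstp1 (chr19:4037863-4038162, minus strand): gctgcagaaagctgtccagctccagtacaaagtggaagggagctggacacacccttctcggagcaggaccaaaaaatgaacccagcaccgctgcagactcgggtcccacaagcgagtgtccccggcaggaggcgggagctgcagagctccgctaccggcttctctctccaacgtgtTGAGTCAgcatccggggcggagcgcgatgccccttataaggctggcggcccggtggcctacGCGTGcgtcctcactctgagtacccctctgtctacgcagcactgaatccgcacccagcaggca
Gstp2 (chr19:4042172-4042471, minus strand): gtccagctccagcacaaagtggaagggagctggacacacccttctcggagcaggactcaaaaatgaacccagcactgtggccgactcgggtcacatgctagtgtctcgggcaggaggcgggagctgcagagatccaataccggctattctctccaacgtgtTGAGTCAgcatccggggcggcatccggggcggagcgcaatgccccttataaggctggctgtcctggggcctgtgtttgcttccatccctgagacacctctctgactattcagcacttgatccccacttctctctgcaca
The Gsta3 window held TGACATTGC with its first base 121 bases before the start. The Mgst1 window, the first of a pair listed for this gene, held the motif on the other strand, 56 bases before the start. Gstp1 and Gstp2 each held TGAGTCA, at 74 and 89 bases before the start, and GCGTG was found in the Gstp1 window at 13 bases before it. In both genes TGAGTCA is followed by gc, so the stretch differs from TGACNNNGC only in having G for C. Looser forms of the antioxidant response element were not searched. The AP-1 core was added to the search after these windows had been read. Of the 10 genes, 9 had a promoter in the RefSeq table, with 11 windows in all. Among these 9 genes, 2 held each of the 3 motifs. Over all 32851 promoters in that table, 12.4% held TGACNNNGC, 32.4% held GCGTG and 7.81% held TGANTCA.

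The first 60 bases of the coding sequences of Gstp1 and Gstp2 are shown because read sharing limits what can be said of either gene. Capitals mark the bases that differ.
Gstp1 coding bases 1 to 60: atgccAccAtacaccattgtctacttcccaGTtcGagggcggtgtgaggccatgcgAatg
Gstp2 coding bases 1 to 60: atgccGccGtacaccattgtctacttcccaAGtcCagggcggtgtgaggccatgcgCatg
Both lie on the minus strand of chromosome 19 (GRCm38), Gstp1 at chr19:4035407-4037985 and Gstp2 at chr19:4040285-4046023. Their coding sequences of 633 bases differed at 12 positions (98.1% identity), 6 of them in this window, and the longest stretch without a difference was 303 bases. Of all 31-base words in their annotated coding transcripts, 77.6% of those of Gstp1 and 67.5% of those of Gstp2 also occurred in the other gene. Gstm1 shared 24.9% of its words with other genes, most of them with Gstm3, and Gstm2 shared 10.7%. For Gsta3 the share was 1.57% and for Gstt1 0.897%, and Gsta4, Gstk1, Gsto1 and Mgst1 shared none. Counts of Gstp1 and Gstp2, and less so of Gstm1 and Gstm2, are therefore uncertain as a split between paralogs.

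Libraries held 8649316 to 39156617 estimated counts over genes (median 28944266). At these depths, 3 counts corresponded to 0.0766 to 0.347 CPM (the TMM-scaled share of a library that a gene's counts make up), for counting error only. Skeletal muscle markers summed to 3406 CPM in NCD control 3 and to at most 125 CPM in the other 15 libraries, and adipocyte markers were also highest in that library, at 1638 CPM. Markers of secretory luminal epithelium, led by milk protein genes, summed to 243179 to 387350 CPM over the 16 libraries, so the tissue label stood. They were higher on HFD with no overlap within either treatment: 299510 to 387350 CPM in HFD metformin, against 271401 to 282222 CPM in NCD metformin, and 276419 to 339989 CPM in HFD control, against 243179 to 276315 CPM in NCD control. Their part in the diet differences below was not tested.

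In TPM, Mgst1 had by far the highest value of the 10 genes, a lead that was much smaller in CPM. It averaged 283.5 TPM (the length-scaled share of transcripts) over the 16 libraries, with a range of 197 to 483 TPM, and made up 69.7 to 82.1% of the summed TPM of the 10 genes. Gsto1 followed at 29.5 TPM, Gstp1 at 18.9 TPM, Gsta3 at 14.3 TPM and Gstm1 at 6.21 TPM. The other 5 had means from 4.31 TPM for Gstk1 to 1.21 TPM for Gsta4, with Gstp2 at 3.60, Gstt1 at 3.20 and Gstm2 at 3.03 TPM between them. The order below Mgst1 was not the same in every group: in the HFD metformin libraries Gsta3 averaged 3.22 ± 2.73 TPM and Gstm1 4.55 ± 1.02 TPM, whereas in the NCD control libraries Gsta3 averaged 34.1 ± 5.62 TPM and stood above Gsto1 at 30.3 ± 5.17 TPM and Gstp1 at 24.9 ± 3.93 TPM (SD, n = 4 each), the ranges of Gsta3 and Gsto1 overlapping there. Gstk1, Gstt1 and Gstm2 had overlapping TPM ranges over the 16 libraries and are not separated by these data. In CPM, Mgst1 had group means of 61.6 to 91.4 CPM against 35.2 to 47.0 CPM for Gsto1. Of the estimated counts of Mgst1, 44.0% and 52.2% were on transcripts of 468 and 690 coding bases. A further 0.621% and 3.23% were on transcripts of 275 and 156 coding bases. Gsto1 had 99.5% of its counts on a transcript of 723 coding bases. The TPM lead of Mgst1 is therefore not read as a lead in transcript number. The part of its short transcripts in its TPM, and so in the summed TPM, was not tested.

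The spread over libraries differed between the genes. Gsto1 had the narrowest range in TPM, with the highest library at 1.69 times the lowest, and Gstt1 (2.20 times) and Mgst1 (2.45 times) were close to it. Gsta3 spanned 31.9 times and Gstp2 105 times. The SD of log2 CPM over the 16 libraries was 1.65 for Gstp2 and 1.38 for Gsta3, against 0.28 for Mgst1.

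The summed TPM of the 10 genes averaged 280.6 ± 23.9 in the HFD metformin group, 304.7 ± 24.4 in the HFD control group, 362.3 ± 47.1 in the NCD metformin group and 523.5 ± 70.3 in the NCD control group (SD, n = 4 each). The 4 NCD control libraries, at 463.8 to 611 TPM, lay above all the other libraries, whose highest was 428 TPM. Without Mgst1 the other 9 genes summed to 65.1 ± 11.5, 69.0 ± 8.10, 80.9 ± 8.53 and 122 ± 15.8 TPM in the same order of groups. TPM carries the share of the library that other transcripts take, which TMM scaling of CPM adjusts for: Mgst1 averaged 215 TPM in the HFD metformin libraries against 401 TPM in the NCD control libraries, but 63.8 CPM against 91.4 CPM. Differences between groups are therefore given in CPM below.

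**Figure D1:**
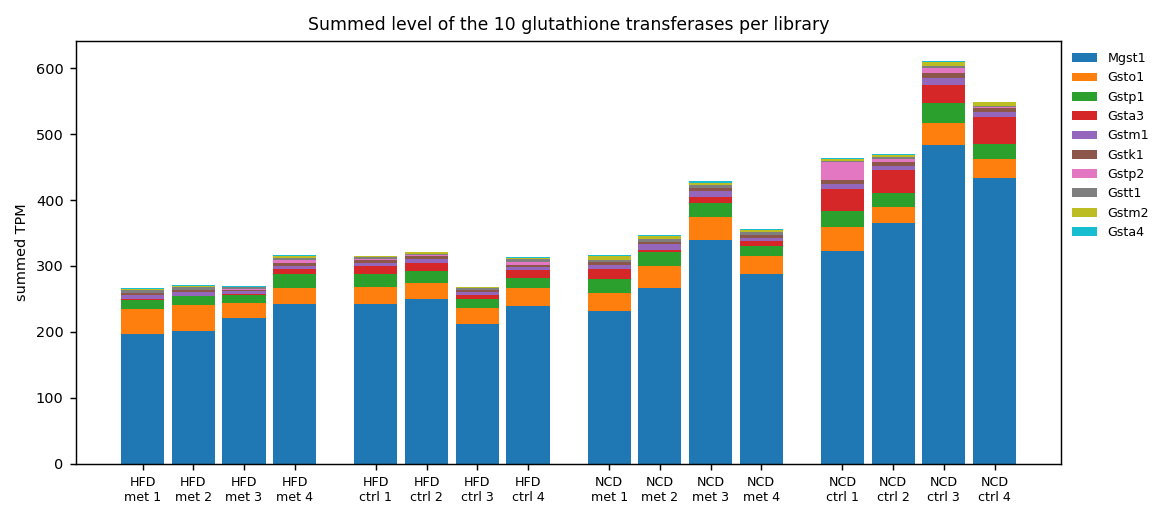
Stacked bars give the TPM of each of the 10 glutathione transferases (vertical axis, summed TPM) in each of the 16 libraries, grouped by diet and treatment (met, metformin; ctrl, control). Mgst1 fills 69.7 to 82.1% of every bar, and the 4 NCD control bars, at 463.8 to 611 TPM, are the tallest.

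Across the 10 genes, edgeR called Gsta3, Gsta4, Gstm2 and Mgst1 between the diets averaged over the treatments, and Gsta3, Gsta4, Gstp2 and Gstt1 between metformin and control averaged over the diets. Without metformin, 9 of the 10 log2 fold changes (HFD over NCD) were negative, with a median of −0.64 against 0.00 over all 12506 genes. In that comparison the HFD libraries lay below the NCD libraries with no overlap for 5 genes (Gsta3, Gsta4, Gstm1, Gstm2 and Mgst1), beside a background of 2.25% of all genes, and no gene of the 10 was called by edgeR's quasi-likelihood test (adjusted p under 0.05 over all genes), beside a background of 0.0640% called. At an unadjusted p under 0.05 there were 8 of the 10, against 881 of the 12506. DESeq2 called 1 of the 10, Mgst1, where at most 65 of all genes were called under any alternative to edgeR's main fit. Gsta3, Gsta4 and Gstm1 had been noticed in that comparison and are among the 5 and the 8, so neither count is support for a difference. Under metformin, 1 of the 10 was called, Gsta4, which fell, beside a background of 2.36% of genes called and 0.504% called lower. Its groups did not overlap there, the HFD libraries being lower, beside a background of 4.01%. Averaged over the treatments, 4 fell with HFD (Gsta3, Gsta4, Gstm2 and Mgst1) and none rose, beside a background of 0.936% called and 0.416% called lower, with a median log2 fold change of −0.52 against 0.00 over all genes. That average contains the libraries in which Gsta3 and Gsta4 had been noticed. The background of genes called higher there was 0.520%.

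On NCD, metformin differed from control in 4 of the 10 genes by edgeR: Gsta3 and Gstp2 fell and Gsta4 and Gstt1 rose, beside a background of 10% of genes called, 6.03% lower and 4.01% higher. Gstp2 had been noticed in that comparison, so its place in the count supports nothing. The NCD control libraries were also among those in which Gsta3 and Gsta4 had been noticed. Counts in that comparison are therefore not independent of the choice of genes, and nothing is concluded from them beside the background. The groups of that comparison did not overlap for 3 genes that were lower under metformin (Gsta3, Gstp2 and Gstk1; background 9.82%) and 2 that were higher (Gsta4 and Gstt1; background 8.73%). On HFD no gene of the 10 was called by edgeR, beside a background of 0.168%. At an unadjusted p under 0.05 there were 4 of the 10 on HFD, against 1599 of the 12506. DESeq2 called 1 of the 10 there, Gsta3, where at most 170 of all genes were called under any alternative to edgeR's main fit. Averaged over the diets, Gsta3 and Gstp2 fell and Gsta4 and Gstt1 rose, beside a background of 11.4% called, 5.57% lower and 5.82% higher, in an average that contains the libraries in which Gstp2 had been noticed. For the interaction of diet and metformin edgeR called no gene of the 12506, a background of 0%, with 1243 at an unadjusted p under 0.05, and DESeq2 called 22, none of them among the 10. Of the 10 genes, 1 (Gstp2) had an unadjusted p under 0.05 there. The 4 comparisons between single groups share libraries in pairs, so they are not independent of each other.

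**Figure D2:**
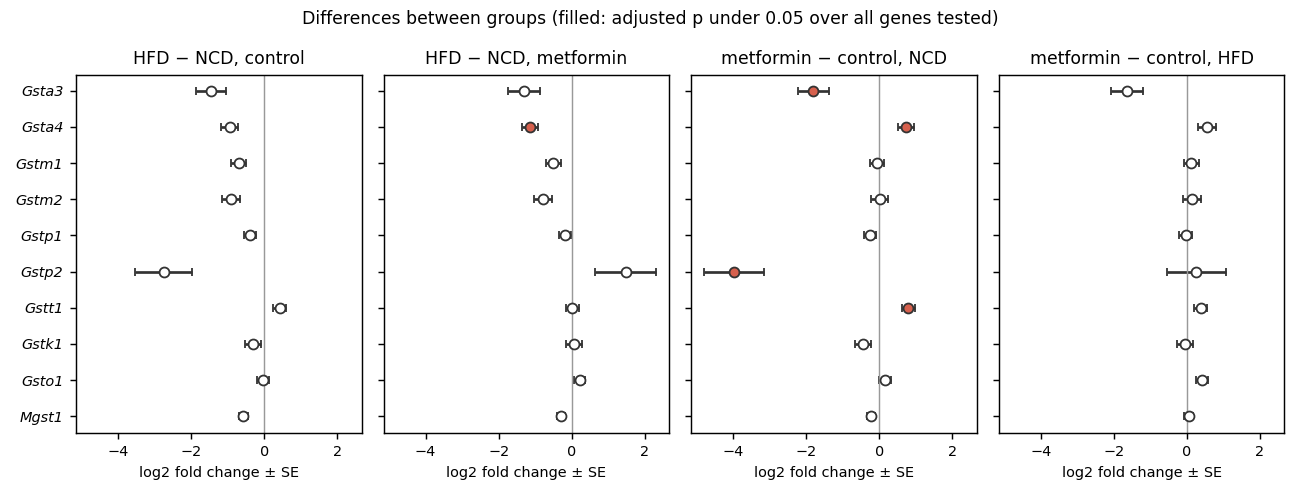
Each panel plots the log2 fold change (horizontal axis, error bars ± SE from edgeR) of the 10 genes for 1 comparison, the group named first over the group named second, with 4 libraries in each group. Filled points mark an adjusted p under 0.05: Gsta4 for the diets under metformin, and Gsta3, Gsta4, Gstp2 and Gstt1 for metformin on NCD. Gstp2 had been noticed in the comparison of metformin on NCD, so its filled point there is a description.

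Gsta3, an alpha-class enzyme that conjugates aflatoxin epoxide in mouse liver, was lower on HFD and lower under metformin. It had 3.38, 1.61, 2.82 and 8.76 CPM in the HFD metformin libraries, against 16.1, 16.5, 7.15 and 12.6 CPM in the HFD control libraries. On NCD it had 16.8, 4.68, 10.8 and 8.96 CPM in the NCD metformin libraries, against 34.4, 38.4, 28.8 and 42.2 CPM in the NCD control libraries. All 4 NCD control libraries lay above every other library, and the 3 lowest values were all in HFD metformin libraries. From low to high, the group means were 4.14 ± 3.17 CPM in HFD metformin, 10.3 ± 5.03 CPM in NCD metformin, 13.1 ± 4.34 CPM in HFD control and 35.9 ± 5.75 CPM in NCD control (SD, n = 4 each), and the NCD metformin and HFD control libraries overlapped. Metformin lowered Gsta3 on NCD with a log2 fold change of −1.80 ± 0.42 (SE; edgeR adjusted p = 0.0192; lower than the NCD control mean in 4 of 4 libraries), a call lost without NCD metformin 2. The NCD control libraries were also among those in which Gsta3 and Gsta4 had been noticed, and HFD control the others, so the metformin tests of these genes are not independent of that choice. On HFD the log2 fold change was −1.65 ± 0.44 and did not pass (edgeR adjusted p = 0.142), and without HFD metformin 4, the highest library of its group at 8.76 CPM, it was −2.38 with an adjusted p of 0.0258. Averaged over the diets, it fell by a log2 fold change of −1.73 ± 0.30 (edgeR adjusted p = 0.00386; lower in 8 of 8 libraries), and this call was kept in all 25 alternatives.

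Between the diets, Gsta3 had a log2 fold change of −1.46 ± 0.42 without metformin (the comparison in which it had been noticed). Under metformin, in libraries outside that comparison, it was −1.30 ± 0.44 (edgeR adjusted p = 0.113). That value did not pass, although 4 of 4 HFD metformin libraries lay below the NCD metformin mean. The averaged value of −1.38 ± 0.30 passed at an edgeR adjusted p of 0.0436 and did not pass in 14 of 25 alternatives. That average contains the comparison in which Gsta3 had been noticed, so it gives no independent support. For the interaction of diet and metformin the log2 value was 0.16 ± 0.60, with a 95% interval of −1.11 to 1.42 and an edgeR adjusted p of 0.962. Gsta3 is at chr1:21240589-21265661 on the plus strand (GRCm38).

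Gsta4, an alpha-class enzyme with high activity towards 4-hydroxynonenal, an aldehyde from oxidised lipids, moved with metformin in the other direction from Gsta3. It was a low gene, with 8 to 105 estimated counts per library. It had 1.0, 0.868, 1.21 and 1.09 CPM in the HFD metformin libraries, against 0.778, 0.742, 0.506 and 0.893 CPM in the HFD control libraries. On NCD it had 2.02, 2.17, 2.53 and 2.46 CPM in the NCD metformin libraries, against 1.07, 1.4, 1.97 and 1.07 CPM in the NCD control libraries. The 4 NCD metformin libraries were the highest of the 16, and the HFD control libraries held the 3 lowest values. HFD lowered Gsta4 under metformin by a log2 fold change of −1.14 ± 0.23 (edgeR adjusted p = 0.0322; lower in 4 of 4 libraries). These are not the libraries in which it had been noticed. The genes were listed with earlier results of these data known, so this call is not shown to be independent of the listing. That call was lost without HFD metformin 1, 2 or 4, without NCD metformin 2 or 3, and with counts rebuilt from TPM, in each case with the direction kept. Without metformin the log2 fold change was −0.95 ± 0.24, as a description. Averaged over the treatments it was −1.04 ± 0.17 (edgeR adjusted p = 0.0119), a call kept in all 25 alternatives. That average contains the comparison in which Gsta4 had been noticed, so it gives no independent support. Metformin raised Gsta4 on NCD by 0.74 ± 0.22 on the log2 scale (edgeR adjusted p = 0.0443; higher in 4 of 4 libraries), and this call was lost in 14 of 26 alternatives with the direction kept. On HFD the value was 0.55 ± 0.25 (edgeR adjusted p = 0.373) and averaged over the diets 0.64 ± 0.17 (edgeR adjusted p = 0.0244). Gsta4 is at chr9:78182774-78209349 on the plus strand.

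Adipocyte markers moved with metformin as Gsta4 did in their medians. The 12 adipocyte markers, all found in the files and none at 0 in every library, summed to 637 to 1287 CPM (median 1086) in the HFD metformin libraries and 543 to 1098 CPM (median 696) in the HFD control libraries. On NCD they summed to 765 to 1434 CPM (median 1112) with metformin and 558 to 1638 CPM (median 670.1) with the control treatment. The ranges overlapped on both diets, and between the diets under metformin, where Gsta4 fell, the ranges were close. Other markers differed between metformin and control too. On NCD their medians were 86.5 and 124 CPM for macrophages, 91.1 and 64.5 CPM for endothelium, and 299 and 346 CPM for fibroblasts. On HFD they were 109 and 115 CPM, 63.7 and 76.0 CPM, and 284 and 419 CPM in the same order. The part of adipocytes and of these other cell types in the result was not tested.

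Gstm1 and Gstm2 are mu-class enzymes that act on epoxides and quinones, and Gstm2 was called lower on HFD averaged over the treatments, while Gstm1 passed in none of the diet comparisons. Gstm1 had 6.61, 6.11, 4.56 and 4.43 CPM in the HFD metformin libraries and 4.53, 6.59, 4.55 and 4.02 CPM in the HFD control libraries, against 7.74, 8.73, 9.06 and 5.35 CPM in the NCD metformin libraries and 6.99, 7.16, 10.7 and 7.49 CPM in the NCD control libraries. All 8 HFD libraries lay below the mean of the NCD libraries, and NCD control 3 was the highest of all. The log2 fold change of Gstm1 between the diets was −0.70 ± 0.20 without metformin, as a description, and −0.51 ± 0.20 under metformin (edgeR adjusted p = 0.173). The averaged value of −0.61 ± 0.14 did not pass (edgeR adjusted p = 0.0577), although it passed in 5 of 25 alternatives, DESeq2 among them. That average contains the comparison in which Gstm1 had been noticed. Gstm2 had 2.54, 2.38, 1.66 and 3.27 CPM in the HFD metformin libraries and 2.01, 2.79, 2.21 and 1.90 CPM in the HFD control libraries, against 6.21, 4.11, 3.65 and 3.12 CPM in the NCD metformin libraries and 3.38, 3.35, 5.36 and 4.80 CPM in the NCD control libraries. The highest of the 8 HFD values, in HFD metformin 4, passed the lowest NCD value, in NCD metformin 4, by a small margin. Averaged over the treatments, Gstm2 had a log2 fold change of −0.85 ± 0.17 and was called lower (edgeR adjusted p = 0.0342; lower in 8 of 8 HFD libraries), a call lost in 13 of 25 alternatives. With Gstm1 to Gstm7 summed before the fit, the averaged diet value was −0.47 (edgeR adjusted p = 0.0430). For metformin over control the log2 fold change of Gstm1 was −0.07 ± 0.20 on NCD and 0.12 ± 0.21 on HFD, and that of Gstm2 0.01 ± 0.24 and 0.13 ± 0.25, with 95% intervals on NCD of −0.49 to 0.35 for Gstm1 and −0.49 to 0.51 for Gstm2. Both are on the minus strand of chromosome 3, Gstm1 at chr3:108012255-108017973 and Gstm2 at chr3:107981702-107986453.

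The pi class differed between its neighbouring genes in these estimates. Gstp2 had 1.38, 0.675, 0.313 and 4.11 CPM in the HFD metformin libraries, against 1.66, 1.18, 0.538 and 2.57 CPM in the HFD control libraries. On NCD it had 0.572, 0.802, 0.773 and 0.258 CPM in the NCD metformin libraries, against 23.8, 4.65, 7.05 and 1.70 CPM in the NCD control libraries. The NCD control libraries were the highest on average but spread widely, with NCD control 1 far above the rest, and 2 of the other 12 libraries exceeded the lowest of them. In estimated counts, the NCD metformin libraries held 15, 24, 22 and 11, against 826, 143, 222 and 57 in the NCD control libraries. The log2 fold change of metformin over control on NCD was −3.98 ± 0.82, a description in the comparison that drew attention to the gene, and without NCD control 1 it was −2.91. On HFD, in libraries outside that comparison, it was 0.26 ± 0.80, with a 95% interval of −1.44 to 1.95 and an edgeR adjusted p of 0.933, and without HFD metformin 4 it was −0.91. Between the diets, Gstp2 had a log2 fold change of −2.76 ± 0.77 without metformin (edgeR adjusted p = 0.302) and 1.48 ± 0.83 under metformin (edgeR adjusted p = 0.355), and neither passed. Both share libraries with the comparison in which it had been noticed. The difference between the diets in the metformin effect, 4.23 ± 1.13 on the log2 scale, did not pass (edgeR adjusted p = 0.334). Averaged over the diets, the log2 fold change of −1.86 ± 0.57 passed (edgeR adjusted p = 0.0441) and was lost in 14 of 25 alternatives. That average contains the comparison in which Gstp2 had been noticed, so the pass gives no independent support.

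Gstp1, the pi-class gene with most of the counts, had 14.9, 14, 15.5 and 22 CPM in the HFD metformin libraries, against 19.6, 20.1, 14.4 and 13.8 CPM in the HFD control libraries. On NCD it had 20.6, 20.6, 19.1 and 15.5 CPM in the NCD metformin libraries, against 21.9, 20.9, 27.2 and 19.9 CPM in the NCD control libraries. Its groups overlapped in all 4 comparisons, and the diet and metformin values did not pass, the largest being −0.40 ± 0.16 on the log2 scale for HFD over NCD without metformin (edgeR adjusted p = 0.652). With Gstp1, Gstp2 and Gstp3 summed before the fit, which does not depend on how reads were split among them, the pi class had a log2 fold change of −0.70 for metformin on NCD (edgeR adjusted p = 0.0537) and −0.02 on HFD. Gstp3 itself had at most 0.286 CPM in any library.

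Gstt1, a theta-class enzyme that acts on small halogenated compounds, was higher under metformin. It had 5.54, 5.82, 4.88 and 4.76 CPM in the HFD metformin libraries, against 4.21, 3.67, 3.13 and 5.36 CPM in the HFD control libraries. On NCD it had 3.85, 6.15, 5.16 and 5.54 CPM in the NCD metformin libraries, against 2.42, 3.19, 3.43 and 2.89 CPM in the NCD control libraries. The NCD control libraries were low, and all 4 lay below every NCD metformin library. Metformin raised Gstt1 on NCD by a log2 fold change of 0.80 ± 0.17 (edgeR adjusted p = 0.0165; higher in 4 of 4 libraries), a call lost without NCD metformin 2 and with Gstt1 to Gstt4 summed, and on HFD the value was 0.38 ± 0.18 (edgeR adjusted p = 0.381). The averaged value of 0.59 ± 0.12 passed (edgeR adjusted p = 0.00933; higher in 8 of 8 libraries) and was lost in 1 of 25 alternatives, the sum of Gstt1 to Gstt4, which had a log2 fold change of 0.24 (adjusted p = 0.109). Between the diets it did not pass with or without metformin, at 0.43 ± 0.18 without metformin (edgeR adjusted p = 0.652) and 0.02 ± 0.17 under it (edgeR adjusted p = 0.975). Gstt1 is at chr10:75783813-75798584 on the minus strand.

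Mgst1, a membrane-bound transferase and peroxidase of the endoplasmic reticulum and outer mitochondrial membrane, was lower on HFD. It had 74.5, 56.0, 67.1 and 57.5 CPM in the HFD metformin libraries and 60.8, 64.2, 59.6 and 61.8 CPM in the HFD control libraries, against 69.5, 72.6, 81.8 and 88.7 CPM in the NCD metformin libraries and 78.4, 83.7, 103 and 101 CPM in the NCD control libraries. The HFD control libraries lay within 59.6 to 64.2 CPM, below all 8 NCD libraries. HFD lowered Mgst1 averaged over the treatments, with a log2 fold change of −0.43 ± 0.08 (edgeR adjusted p = 0.0261; lower in 8 of 8 libraries), a call lost in 5 of 25 alternatives. Without metformin the value was −0.57 ± 0.12 (edgeR adjusted p = 0.121; DESeq2 adjusted p = 0.00167), and under metformin it was −0.29 ± 0.12 (edgeR adjusted p = 0.175). For metformin on NCD and on HFD the log2 values were −0.23 ± 0.12 and 0.05 ± 0.12, and neither passed (edgeR adjusted p = 0.221 and 0.907). Mgst1 is at chr6:138140316-138156755 on the plus strand.

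Gsto1 and Gstk1 were called in none of the 7 comparisons by edgeR or DESeq2, with 2 values at an unadjusted p under 0.05, both of Gsto1 (metformin on HFD and averaged over the diets). Over all 12506 genes, 1599 and 3612 had an unadjusted p under 0.05 there. Gsto1, an omega-class thioltransferase and dehydroascorbate reductase, had 58.9, 55.3, 39.5 and 34.1 CPM in the HFD metformin libraries, against 36.3, 37.4, 34.4 and 32.8 CPM in the HFD control libraries. Its widest difference was there, with a log2 fold change of 0.41 ± 0.16 (edgeR adjusted p = 0.277). HFD metformin 1 and 2 were high, while the other 2 lay near the HFD control values. On NCD Gsto1 lay between 30.2 and 44.2 CPM in all 8 libraries. Gstk1, the kappa-class enzyme of mitochondria and peroxisomes, had 4.88, 3.88, 4.53 and 5.30 CPM in the NCD metformin libraries, against 5.34, 6.24, 8.29 and 5.64 CPM in the NCD control libraries. The groups did not overlap, with 5.30 CPM as the highest NCD metformin value and 5.34 CPM as the lowest NCD control value, and the log2 fold change of −0.45 ± 0.22 did not pass (edgeR adjusted p = 0.181). On HFD Gstk1 lay between 3.57 and 7.34 CPM. Gsto1 is at chr19:47854970-47864790 and Gstk1 at chr6:42245935-42250447, both on the plus strand.

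**Figure D3:**
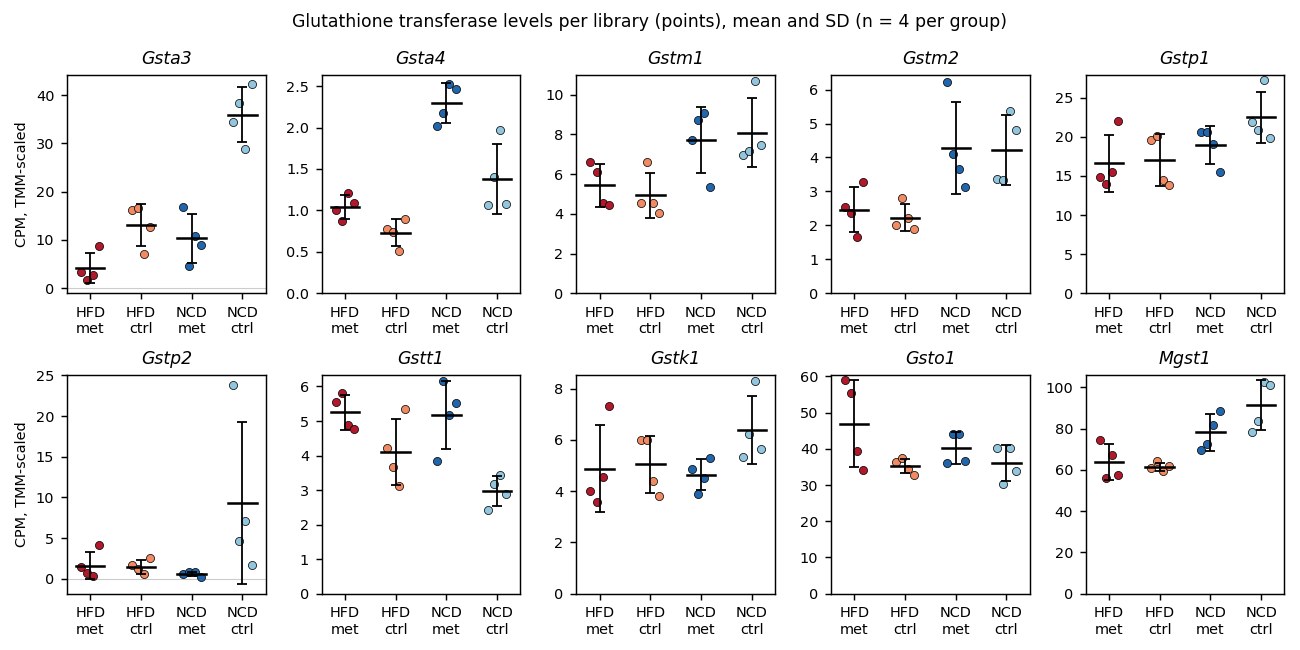
Each panel plots the TMM-scaled CPM (vertical axis, starting at or just below 0) of 1 gene in the 4 libraries of each group (points), with the group mean (line) and SD (bar, n = 4); met is metformin and ctrl is control. Gsta3 is highest in the 4 NCD control libraries at 28.8 to 42.2 CPM, Gsta4 in the 4 NCD metformin libraries at 2.02 to 2.53 CPM, and 1 NCD control library carries Gstp2 at 23.8 CPM.

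The sample numbers in the titles leave their widest gap between 10 and 14, and the groups are unevenly split by it. Within the libraries numbered up to 10, the log2 ratio of mean CPM for metformin over control on NCD was −1.66 for Gsta3, −4.11 for Gstp2, 0.50 for Gsta4 and 0.73 for Gstt1 (2 libraries against 3). Within those from 14 it was −2.09, −1.72, 1.22 and 0.89 in the same order of genes (2 against 1). For HFD over NCD without metformin, Gsta3 had −1.07 (1 against 3) and −1.80 (3 against 1), and Mgst1 −0.54 and −0.71. The directions of these values were the same on both sides of the gap, which did not hold for every gene and comparison. For HFD over NCD under metformin, Mgst1 had 0.07 (1 against 2) and −0.50 (3 against 2), and averaged over the treatments −0.27 and −0.57. Gstp2 had −2.28 and 0.78 for HFD over NCD averaged over the treatments. What the gap stands for is not given in the labels.

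Among all tested genes, those with the most similar profile over the 16 libraries were taken by the smallest root mean square (RMS) difference of centred log2 CPM, as a description with no test. For Gsta3 they were Clca3a2 at an RMS difference of 0.56, Aox3 at 0.64 and Ephb6 at 0.69, where the SD of Gsta3 itself was 1.38. For Gsta4 they were Aldh1a7 at 0.29, Adig at 0.34 and Aldh5a1 at 0.34, with an SD of 0.65 for Gsta4. Gstm2 lay closest to Gstm1, its class neighbour, at 0.31, then to Aldh2 and Acy3, both at 0.32. Gstp2 had no close match, the nearest being Fam83g at 0.97, Il1f9 at 0.98 and Ephb6 at 0.99.

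The other genes of the superfamily gave no call in these libraries. Of 22 listed, 21 were in the files, 11 had enough counts to be tested, and neither edgeR nor DESeq2 called any of them in the 7 comparisons. At an unadjusted p under 0.05 there was 1 of 11 for the diets without metformin, 1 under metformin, none for metformin on NCD and 1 on HFD. Over all 12506 genes there were 881, 2407, 3488 and 1599 in the same order. Mgst3, a microsomal family member, was the most abundant of them at a mean of 24.4 TPM, and Gstt2, Gstz1 and Gstt3 averaged 7.30, 7.09 and 6.35 TPM. Gstm3, Gsta1 and the alpha-class copies Gm10639 and Gm3776 had 0 counts in every library, which allows up to 0.347 CPM in the shallowest library and 0.0766 CPM in the deepest. Ptges, which makes prostaglandin E, had the lowest p for HFD over NCD averaged over the treatments, at 0.662 ± 0.412 CPM on HFD and 1.13 ± 0.485 CPM on NCD (SD, n = 8 each), a log2 fold change of −0.89 ± 0.35 (edgeR adjusted p = 0.199). Gstm6 had −1.18 ± 0.45 for metformin on HFD (edgeR adjusted p = 0.284) and Gstcd 0.54 ± 0.22 for HFD over NCD without metformin (edgeR adjusted p = 0.639). The median log2 fold change of these 11 for the averaged diet comparison was −0.12, and for the averaged metformin comparison 0.03.

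Other enzymes that make, use or recycle glutathione were read from lists of the pathway. These lists, and that of NRF2 below, were chosen with earlier results of these data known. Their counts beside the background are therefore a description and no support for a difference. For metformin averaged over the diets, 5 of 13 tested peroxidase, reductase and glutaredoxin genes were called, 4 higher and 1 lower, beside 11.4% of all genes called, 5.82% higher and 5.57% lower. Gpx1, the cytosolic glutathione peroxidase, averaged 187 ± 15.5 CPM with metformin and 136 ± 14.5 CPM with the control treatment (SD, n = 8 each), with no overlap and a log2 fold change of 0.46 ± 0.08 (edgeR adjusted p = 0.00245). Gpx4, which reduces lipid hydroperoxides, rose by 0.37 ± 0.09 (edgeR adjusted p = 0.0179), Glrx, a glutaredoxin that removes glutathione from proteins, by 0.83 ± 0.18 (edgeR adjusted p = 0.0102), and Esd, which hydrolyses S-formylglutathione, by 0.26 ± 0.08 (edgeR adjusted p = 0.0498), all on the log2 scale. Gsr, the reductase that regenerates glutathione, had a log2 fold change of −0.29 ± 0.08 and was called lower (edgeR adjusted p = 0.0396). On NCD alone, Gpx1 and Glrx were called higher, at 0.48 ± 0.11 and 1.18 ± 0.25 on the log2 scale (edgeR adjusted p = 0.0180 and 0.0153). Between the diets edgeR called none of the 13, with 2 at an unadjusted p under 0.05 without metformin, 3 under metformin and 3 averaged. Over all 12506 genes the unadjusted counts were 881, 2407 and 2174 in the same order. DESeq2 called 1 of the 13 (Gpx3, averaged), where at most 1595 of all genes were called under any alternative. Gpx3, the secreted peroxidase, had the lowest p for the averaged diet comparison at −1.44 ± 0.39 (edgeR adjusted p = 0.0801).

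Of 15 tested genes of glutathione synthesis and turnover, 1 was called lower for the averaged diet comparison, beside 0.416% of all genes: Gclm, the modifier subunit of the rate-limiting ligase, at 14.5 ± 0.963 CPM on HFD and 17.8 ± 2.64 CPM on NCD (SD, n = 8 each; log2 fold change −0.29 ± 0.07, edgeR adjusted p = 0.0454). Gclm was also lower with metformin on NCD (log2 fold change −0.34 ± 0.09, edgeR adjusted p = 0.0309), with 15.7 ± 1.15 CPM against 19.9 ± 1.79 CPM. Lap3, an aminopeptidase that can act on the dipeptide left by glutathione breakdown, was higher with metformin on NCD (0.45 ± 0.13, edgeR adjusted p = 0.0387) and averaged over the diets (0.38 ± 0.09, edgeR adjusted p = 0.0183).

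Among 25 regulators and other targets of NRF2, 4 were called lower on HFD in the averaged comparison and none higher, beside 0.416% and 0.520% of all genes. They were the pentose phosphate and NADPH enzymes Pgd (−0.46 ± 0.08, edgeR adjusted p = 0.0121), Tkt (−0.41 ± 0.07, edgeR adjusted p = 0.0134) and Me1 (−0.34 ± 0.07, edgeR adjusted p = 0.0411), and the aldehyde oxidase Aox1 (−0.98 ± 0.20, edgeR adjusted p = 0.0333). Pgd averaged 95 ± 8.43 CPM on HFD and 131 ± 14.6 CPM on NCD with no overlap (SD, n = 8 each). Of the 25, 21 had a negative log2 fold change, beside 50.1% of all genes, with a median of −0.20 against −0.00045 over all genes. These counts are a description, since the list was chosen with earlier results of these data known. For metformin averaged over the diets 6 were called, in both directions, beside 11.4% of all genes. The ferritin light chain gene Ftl1 (0.54 ± 0.10, edgeR adjusted p = 0.00472) and Taldo1, of the pentose phosphate pathway, (0.30 ± 0.08, edgeR adjusted p = 0.0304) rose. The microsomal epoxide hydrolase Ephx1 (−0.81 ± 0.15, edgeR adjusted p = 0.00518), Bach1, a repressor at antioxidant response elements, (−0.64 ± 0.12, edgeR adjusted p = 0.00492), the heme oxygenase Hmox1 (−0.68 ± 0.18, edgeR adjusted p = 0.0244) and Mafg, a small MAF protein, (−0.43 ± 0.10, edgeR adjusted p = 0.0134) fell. Ephx1 was also called lower with metformin on NCD (−1.22 ± 0.22, edgeR adjusted p = 0.00766) and, under metformin, higher on HFD than on NCD (0.91 ± 0.22, edgeR adjusted p = 0.0410), 2 comparisons that share the NCD metformin libraries. Bach1 and Aox1 were likewise called lower with metformin on NCD (−0.80 ± 0.17 and −0.88 ± 0.27, edgeR adjusted p = 0.0140 and 0.0471) and Ftl1 higher (0.47 ± 0.14, edgeR adjusted p = 0.0445). Under metformin, Pgd, Me1 and the thioredoxin reductase Txnrd1 were called lower on HFD (−0.55 ± 0.11, −0.45 ± 0.10 and −0.54 ± 0.12, edgeR adjusted p = 0.0322, 0.0388 and 0.0360).

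**Figure D4:**
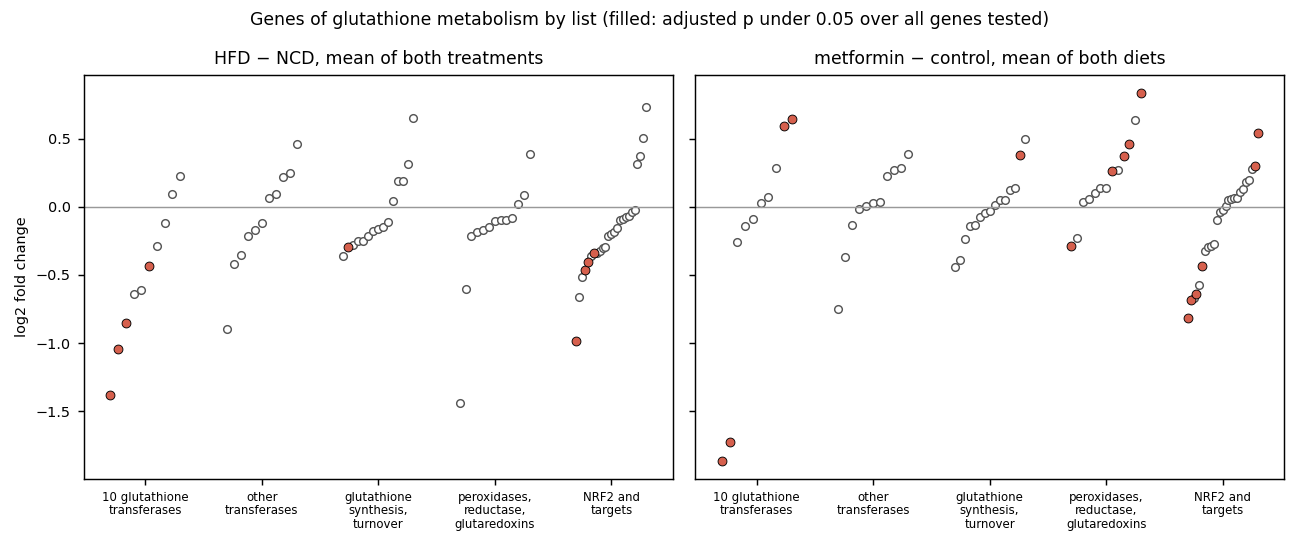
Points are the tested genes of each list (horizontal axis), sorted by log2 fold change (vertical axis), for the diets averaged over treatments (left) and for metformin averaged over diets (right). Filled points passed an adjusted p of 0.05: 4 of the 10 glutathione transferases in each panel, none of 11 other transferases, and 5 of 13 peroxidase, reductase and glutaredoxin genes for metformin against none for diet. Of all genes tested, 0.936% passed for diet and 11.4% for metformin. Gsta3, Gsta4 and Gstp2 had been noticed in libraries that these averages contain, and the lists were chosen with earlier results known, so the counts are a description.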

How the data were processed

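The deposited files give an estimated count and a TPM value per transcript and library, in Salmon's format per the file headers. TPM as deposited by the authors is relative to effective length. The submitters' processing notes name Salmon 1.3.0, DESeq2 1.28.1 and GRCm38.p6, with no role or order. The library kit keeps strand, per the labels' protocols, while the strand setting used in counting is not known from the labels or headers. For all 56929 transcripts whose versions match GENCODE M21, lengths in the files exceeded the annotated coding length (stop codon aside) by 0 to 5 bases, so reads outside coding sequence are not measured.

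Estimated counts of 57452 of 58204 transcripts were summed to 22196 genes and rounded. The other 752, with 0.165 to 0.218% of a library's counts, were left out. The test was the quasi-likelihood test of edgeR 4.0.16 (R 4.3.3), from 1 fit of 4 group means over 16 libraries with TMM scaling and filterByExpr, which kept 12506 genes. P-values were two-sided, Benjamini-Hochberg adjusted within each of 7 contrasts, and called under 0.05. The fit was tested on simulated data. SE belongs to log2 fold changes (group named first over second), and 95% intervals use 12 residual and 4.38 prior degrees of freedom. Replicates were numbered in accession order. A count such as lower in 4 of 4 libraries is against the mean of the other group. DESeq2 1.42.0, other scaling, no filter on low counts, only the 2 groups compared, counts rebuilt from TPM, summed paralogs, a term for the gap in sample numbers, removal of milk protein genes and leaving out libraries were alternatives.

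The members and lists were chosen with earlier results of these data known. Named genes were all 10 members, any called gene of the rest of the superfamily and up to 3 with the lowest p per contrast (of which 3 are printed), and in each other list the called genes or the 1 with the lowest p. Promoters were matched by symbol in RefSeq. The list of genes for export of glutathione conjugates is not reported here.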

Additional observations from a re-analysis of the deposited data

Results flagged for a closer look

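In the NCD control group, the level of Gstm1 in NCD control 3 was 10.7 CPM, against 6.99, 7.16 and 7.49 CPM in the other 3 libraries. The gap to the nearest library was 0.863 of the range of the group, above the 95% critical value of Dixon's test for 4 samples. Of 40 gene and group combinations examined this was the 1 that passed, where chance gives about 1 in 20. NCD control 3 is also the library with the highest skeletal muscle and adipocyte markers, at 3406 and 1638 CPM, and their part in the value was not tested.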

How the results depend on the processing

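Every value here is for the 10 genes. No paired analysis was possible because the labels give no replicate numbers that the groups share. With library size alone as the scaling, edgeR called 1 gene for the diets without metformin (Mgst1) and 3 under metformin (Gsta4, Gstm2 and Mgst1), and the median of all genes then moved by −0.16 and −0.18 on the log2 scale. DESeq2 called 1 (Mgst1) and 2 (Gsta4 and Gstm2) there, and 1 for metformin on HFD (Gsta3). Counts rebuilt from TPM gave 0 calls for the diets under metformin and 1 for the averaged diets (Gsta4). Close paralogs summed gave 2 for metformin on NCD and 2 averaged over the diets. In both these were Gsta4 and Gsta3, the latter summed there with Gsta1, Gsta2, Gm3776 and Gm10639. A term for the gap in sample numbers gave 2 for the averaged diets (Gsta4 and Mgst1). With NCD control 3 and HFD metformin 4 both left out, an alternative chosen after seeing the data, 2 were called for the diets under metformin (Gsta3 and Gsta4) and 1 for metformin on HFD (Gsta3). Leaving out each library in turn gave 0 to 1 calls for the diets under metformin, 1 to 4 for metformin on NCD (1, Gstp2, without NCD metformin 2), 0 to 1 for metformin on HFD, 1 to 5 for the averaged diets (1, Gsta4, without HFD metformin 2, HFD control 3 or NCD metformin 3) and 2 to 5 for averaged metformin. Gstp2 had been noticed for metformin on NCD, so its call there is a description. The calls of the diets without metformin and of the interaction stayed at 0. No log2 fold change that changed sign passed the test under the alternative (lowest adjusted p 0.566). With the term for the gap, Gsto1 had 0.041 for the diets without metformin. With both libraries left out, Gsto1 had 0.013 for the diets without metformin, Gstk1 had −0.21 for the diets under metformin, Gstm1 had 0.087 for metformin on NCD, Gstm2 had −0.052 for metformin on HFD, Gstp2 had −0.91 for metformin on HFD, Gsta3 had −0.49 for the interaction, Gstm2 had −0.19 for the interaction, Gstp1 had −0.061 for the interaction, Gstk1 had −0.041 for the interaction. With paralogs summed, the value is that of the sum and not of the single gene it is set against. The sum of Gstp1 to Gstp3, set against Gstp2, had −0.099 for the diets under metformin and −0.019 for metformin on HFD. The sum of Gstm1 to Gstm7, set against Gstm1, had 0.059 for metformin on NCD. The sum of Gstt1 to Gstt4, set against Gstt1, had 0.011 for the interaction. With library size alone, Gstt1 had −0.15 for the diets under metformin, Gstk1 had −0.097 for the diets under metformin, Gstm2 had −0.055 for metformin on NCD, Mgst1 had −0.034 for metformin on HFD, Gsto1 had −0.077 for the averaged diets, Gstm1 had −0.039 for averaged metformin. With counts rebuilt from TPM, Gstp2 had −0.0078 for metformin on HFD, Mgst1 had −0.0077 for metformin on HFD. With each library left out in turn, the log2 fold change ranged over Gsto1 −0.12 to 0.020 for the diets without metformin, Gstt1 −0.11 to 0.098 for the diets under metformin, Gstk1 −0.21 to 0.20 for the diets under metformin, Gstm1 −0.15 to 0.087 for metformin on NCD. Other ranges were Gstm2 −0.23 to 0.14 for metformin on NCD, Gstm2 −0.044 to 0.28 for metformin on HFD, Gstp1 −0.21 to 0.051 for metformin on HFD, Gstp2 −0.91 to 0.60 for metformin on HFD. Further ranges were Gstk1 −0.34 to 0.069 for metformin on HFD, Mgst1 −0.033 to 0.11 for metformin on HFD, Gsta3 −0.58 to 0.49 for the interaction, Gstm2 −0.057 to 0.36 for the interaction. The last were Gstm1 −0.021 to 0.11 for averaged metformin, Gstm2 −0.047 to 0.14 for averaged metformin. Among these, the widest gap was for the diets under metformin, between Gstp2 at 1.48 as reported and the sum of Gstp1 to Gstp3 at −0.10. Where a call or a sign changed, the cause was not tested. Of the alternative values, 1637 kept their direction and their side of the threshold, 74 lost a call, 18 gained one and 61 changed sign. Values of summed paralogs are counted there under each of the 10 genes in the sum. Counts of all genes called moved too: 8 as reported and 2 to 65 over the alternatives for the diets without metformin, 295 as reported and 2 to 769 over the alternatives for the diets under metformin, 1255 as reported and 180 to 1790 over the alternatives for metformin on NCD, 21 as reported and 1 to 170 over the alternatives for metformin on HFD, 0 as reported and 0 to 22 over the alternatives for the interaction, 117 as reported and 28 to 1595 over the alternatives for the averaged diets, 1424 as reported and 711 to 1939 over the alternatives for averaged metformin. Gsta4 and Gstp2, the genes with the fewest counts in a library, are limited most by depth.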
